A study of Mus musculus with 35 samples.

Results

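The genes described here encode the mitochondrial respiratory chain, read in whole mouse testis on postnatal days 15 and 25. Members were all genes named on an array whose symbol opens with Ndufa, Ndufb, Ndufc, Ndufs, Ndufv, Sdha to Sdhd, Uqcr or Cox4 to Cox8. Each gene was read by its brightest probe set among those annotated to a single symbol. The rule found 76 of 19938 named genes on the day 15 array and 77 of 18194 on the day 25 array, 73 of them on both and 80 on either. Ndufa11, Ndufs6 and Cox7b were read on day 15 only, and Ndufb1, Ndufb4, Ndufaf8 and Cox7c on day 25 only. All 76 and all 77 passed the filter on low values.

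The chain passes electrons from NADH through complex I, or from succinate through complex II, to complex III and then through cytochrome c to complex IV, cytochrome c oxidase, which reduces oxygen. The proton gradient built on the way drives ATP synthase. Several complex IV subunits have copies used by particular tissues, and male germ cells use Cox6b2, Cox7b2 and Cox8c beside the widely expressed Cox6b1, Cox7b and Cox8a. Germ cells enter meiosis and reach the pachytene stage around the first of the ages studied, and round spermatids appear around the second, so the mix of cells in a whole testis changes quickly at these ages.

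On each day 56 members were common subunits, with 34 in complex I, 4 in complex II, 8 in complex III and 10 in complex IV, Ndufa4 being counted with complex IV. The others were the 3 germ cell isoforms, 3 isoforms of striated muscle and brown fat (Cox6a2, Cox7a1 and Cox8b), 2 isoforms restricted to other cells (Cox4i2 and Ndufa4l2), and the supercomplex factor Cox7a2l. The prefixes also took in assembly factors that are not part of the finished complexes, 11 on day 15 and 12 on day 25.

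The animals were male C57BL6 mice of 3 Akt1 genotypes, wild type (Akt1+/+), heterozygous (Akt1+/-) and homozygous (Akt1-/-), either unexposed or exposed to 6-N-propylthiouracil (PTU), which blocks thyroid hormone synthesis. Akt1 encodes a protein kinase downstream of growth factor receptors. Each array held RNA of 1 mouse, with 3 arrays a group, except that the authors left out 1 array of low quality from the exposed homozygous group on day 25, which leaves 2. The sources used here do not give the dose and timing of PTU or how the Akt1 allele was made. Values are log2 RMA values, a background-corrected and normalized intensity on a log scale, and the days used different arrays (MoGene 1.0 ST and Mouse Genome 430 2.0), so levels are never set side by side between days or between genes. Differences are given as log2 ± standard error.

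The Akt1 probe sets overlapped between unexposed genotypes: on day 15 unexposed homozygous arrays read 9.40, 9.23 and 9.04 and unexposed wild type 9.34, 9.48 and 9.71, and on day 25 the former read 9.34, 9.46 and 9.28 and the latter 9.55, 9.38 and 9.51. On day 15 exposed wild-type arrays read 9.92, 9.95 and 10.09 and exposed homozygous arrays 9.74, 9.01 and 9.18, with no overlap, whereas the exposed arrays of these genotypes overlapped on day 25. Where the deletion lies relative to these probes is unknown here, so they do not check the labels. Spink8, a gene of the epididymis, the duct beside the testis, lay above 7 in unexposed wild type 2 and 3 (9.38 and 7.91) and exposed homozygous 2 (8.74) on day 15. On day 25 it did so in both exposed homozygous arrays (12.92 and 12.75), exposed heterozygous 2 (10.07) and exposed wild type 3 (8.72). The 18 day 15 arrays also fell into a set of 12 and a set of 6 by bright probe sets that carry no gene symbol, and the second set held no wild-type array. On day 25 the difference between 3' and 5' probe sets of beta-actin, a sign of RNA quality, was 0.95 to 1.44 in homozygous arrays and 0.55 to 0.78 in all others. These ranges do not overlap, so a fit with this difference as a covariate cannot tell RNA quality from the homozygous genotype. In whole tissue, fewer cells of a type and less RNA per cell cannot be told apart.

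On day 15 the 3 germ cell isoforms were all lower in unexposed homozygous than in unexposed wild-type testis, with differences of -2.76 to -1.64 on the log2 scale. PTU in wild type was followed by lower Cox8c and Cox6b2, while in homozygous testis the group means were about 1 log2 unit higher after PTU with no call. Of the other members, only the complex I assembly factor Ndufaf3 differed by more than 1 log2 unit in these comparisons. Common subunits that passed had smaller differences, from -0.58 to 0.58.

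Cox8c, the germ cell copy of the small subunit VIII, read 10.33, 9.83 and 10.30 in unexposed wild type and 6.97, 7.27 and 7.95 in unexposed homozygous arrays. It read 8.95, 8.14 and 8.02 in exposed wild type, and 8.90, 9.08 and 7.57 in exposed homozygous arrays. The heterozygous arrays read 9.41, 8.58 and 9.59 unexposed and 8.56, 7.48 and 9.11 exposed. The unexposed wild-type arrays were the highest of all 18, and no homozygous or exposed wild-type array reached them. The difference between unexposed homozygous and wild type was -2.76 ± 0.42 (adjusted p = 0.000121), and that between exposed and unexposed wild type was -1.79 ± 0.42 (adjusted p = 0.0089). Adjusted p here and below is from limma's moderated test with Benjamini-Hochberg adjustment over all genes tested that day.

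Cox6b2, the germ cell copy of the subunit at the interface of the complex IV dimer, was likewise highest in unexposed wild type and had its lowest mean in unexposed homozygous testis. It read 10.20, 9.80 and 10.06 in unexposed wild type, 9.34, 8.89 and 8.77 in exposed wild type, and 7.64, 7.87 and 8.56 in unexposed homozygous arrays. The exposed homozygous arrays read 9.28, 9.31 and 8.34, of which the last overlaps the unexposed ones. Unexposed homozygous testis was lower than wild type by a difference of -2.00 ± 0.30 (adjusted p = 0.000103), and exposed wild type by -1.02 ± 0.30 (adjusted p = 0.029). Cox7b2, the germ cell copy of subunit VIIb, read 9.37, 9.03 and 9.42 in unexposed wild type against 7.03, 7.34 and 8.54 in unexposed homozygous arrays. The groups do not overlap, and the difference was -1.64 ± 0.33 (adjusted p = 0.0013). In exposed wild type Cox7b2 read 8.77, 8.27 and 8.43, below every unexposed wild-type array, but the difference of -0.79 ± 0.33 did not pass (adjusted p = 0.12).

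The calls for these 3 isoforms between unexposed genotypes passed under all 15 alternatives run. Within the first array set alone, which holds 2 of the 3 unexposed homozygous arrays, the differences were -3.04 for Cox8c, -2.27 for Cox6b2 and -2.09 for Cox7b2, and without the Spink8-bearing arrays they were -2.93, -2.18 and -1.73. Those in wild type after PTU were less firm. Cox6b2 did not pass without exposed array 2 or 3 or unexposed array 1 or 3 (adjusted p = 0.11, 0.12, 0.12 and 0.083), and Cox8c did not without exposed array 3 (adjusted p = 0.051). Without the Spink8-bearing arrays, which leaves 1 unexposed wild-type array that is assumed to vary like the other groups, the differences were -1.20 for Cox6b2 and -1.96 for Cox8c and neither passed (adjusted p = 0.14 and 0.084).

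Promoters of Cox6b2, Cox7b2 and their partners are shown so that these pairs can be compared. On day 15 Cox6b2 and Cox7b2 were lower in unexposed homozygous than in unexposed wild-type testis, while Cox6b1 and Cox7b were not. Whether the promoters bear on this was not tested. The sequences are the 200 bases before the RefSeq transcription start in GRCm38.p6, 5′ to 3′ on the gene's own strand. Cox6b2 lies at chr7:4753095-4753294 and Cox6b1 at chr7:30626115-30626314, both on the minus strand. Cox7b2 lies at chr5:71548206-71548405 on the minus strand and Cox7b at chrX:106015500-106015699 on the plus strand. Capitals mark matches, on either strand, to the core of the cyclic AMP response element bound by CREM and CREB (TGACG), the ETS factor motif (CCGGAAG), the NRF1 motif, the CCAAT box (CCAAT) and the MYB motif (AACNGNC).
Cox6b2: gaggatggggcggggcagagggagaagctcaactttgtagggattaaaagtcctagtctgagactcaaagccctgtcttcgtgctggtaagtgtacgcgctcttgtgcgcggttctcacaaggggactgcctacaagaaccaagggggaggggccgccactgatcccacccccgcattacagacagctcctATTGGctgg
Cox6b1: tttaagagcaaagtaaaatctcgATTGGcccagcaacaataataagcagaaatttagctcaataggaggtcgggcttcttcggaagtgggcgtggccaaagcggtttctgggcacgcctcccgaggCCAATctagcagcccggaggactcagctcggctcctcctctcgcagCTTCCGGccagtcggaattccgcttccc
Cox7b2: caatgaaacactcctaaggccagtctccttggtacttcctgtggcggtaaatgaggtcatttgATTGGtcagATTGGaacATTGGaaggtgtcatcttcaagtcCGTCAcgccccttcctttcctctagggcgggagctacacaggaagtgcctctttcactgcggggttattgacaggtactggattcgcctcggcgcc
Cox7b: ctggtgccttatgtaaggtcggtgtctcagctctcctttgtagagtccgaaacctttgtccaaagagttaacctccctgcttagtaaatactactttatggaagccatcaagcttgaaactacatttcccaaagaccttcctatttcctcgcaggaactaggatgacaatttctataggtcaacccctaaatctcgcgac

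Cox7b2 holds the TGACG core 96 bases before its start and 3 CCAAT boxes, Cox6b2 holds 1 CCAAT box 9 bases before its start, Cox6b1 holds 2 CCAAT boxes and an ETS match 28 bases before its start, and the Cox7b window holds none of the 5. Of 27025 promoters in the RefSeq table cut the same way, 15.8% hold TGACG, 6.45% CCGGAAG, 3.61% the NRF1 motif, 30.02% CCAAT and 22.8% AACNGNC, so most of these matches are common ones. Of the 80 members 66 were matched by symbol, and among the 50 matched common subunits 15 hold TGACG, 9 the NRF1 motif, 7 the ETS motif, 15 CCAAT and 12 the MYB motif. Cox6b2 and Cox7b2 share no match beyond CCAAT in these windows, and the promoter of Cox8c was not examined. That of its widely expressed partner Cox8a, not printed here, also holds TGACG, 21 bases before its start. It holds 1 CCAAT box and 2 MYB matches besides.

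**Figure D1:**
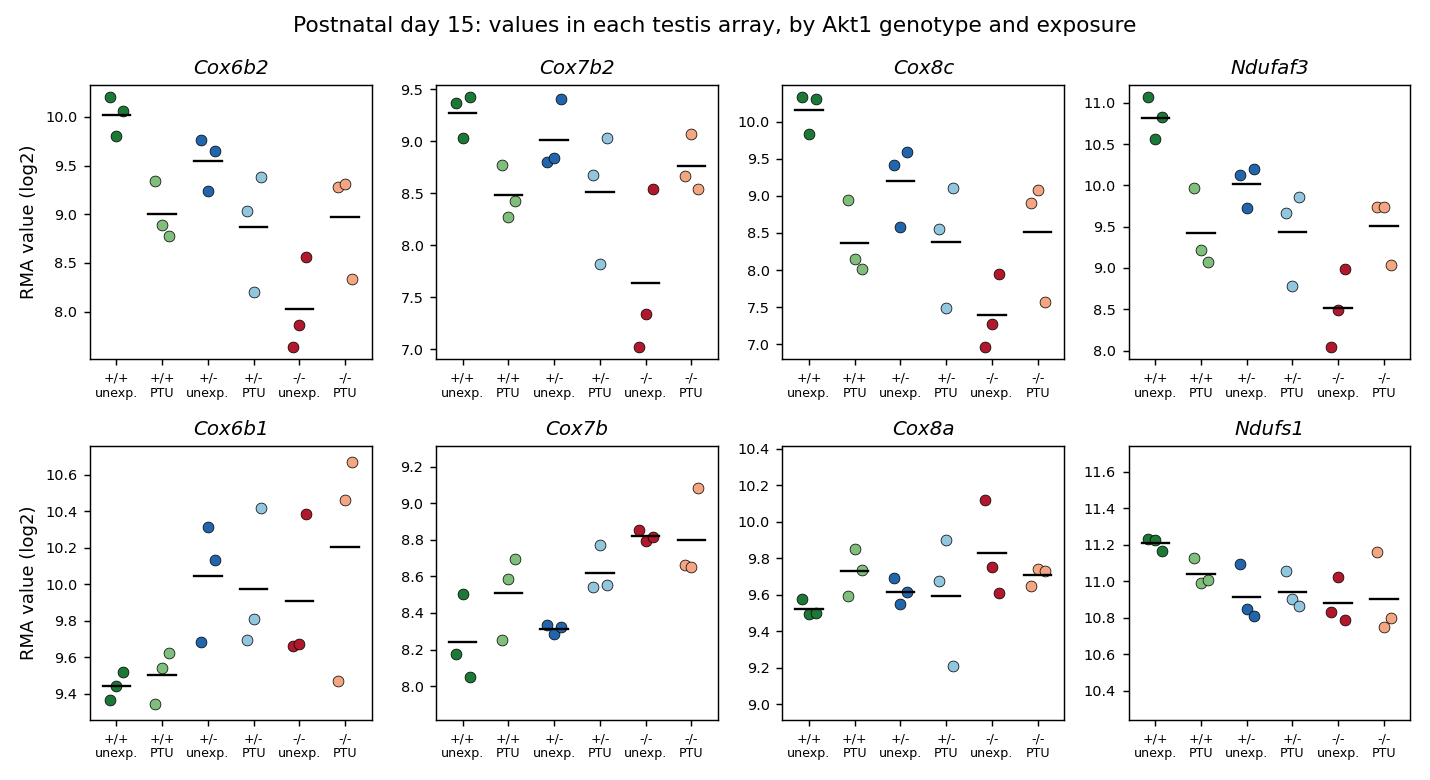
Log2 RMA values of 8 members in each day 15 array, by Akt1 genotype and exposure (unexp., unexposed); points are arrays, bars are group means, and each panel has its own axis. The germ cell isoforms Cox6b2, Cox7b2 and Cox8c and the assembly factor Ndufaf3 are highest in unexposed wild type and have their lowest group mean in unexposed homozygous testis, whereas Cox6b1, Cox7b and Cox8a are not lower there.

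Ndufaf3, a complex I assembly factor of the mitochondrial matrix, had the widest differences of the assembly factors. It read 11.06, 10.56 and 10.83 in unexposed wild type, 9.97, 9.22 and 9.07 in exposed wild type, 8.05, 8.50 and 8.99 in unexposed homozygous and 9.74, 9.73 and 9.04 in exposed homozygous arrays. No unexposed homozygous array reached an unexposed or exposed wild-type array. The differences were -2.31 ± 0.30 (adjusted p = 2.63e-05) between unexposed genotypes and -1.40 ± 0.30 (adjusted p = 0.0046) after PTU in wild type, and both passed under all 15 alternatives run.

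The widely expressed partners did not fall with them. Cox6b1 read 9.37, 9.44 and 9.52 in unexposed wild type and 9.66, 9.67 and 10.39 in unexposed homozygous arrays (0.46 ± 0.27, adjusted p = 0.21), and Cox8a differed by 0.30 ± 0.15 (adjusted p = 0.13). Cox7b read 8.18, 8.50 and 8.05 against 8.86, 8.79 and 8.82, which is higher in every homozygous array, with a difference of 0.58 ± 0.14 (adjusted p = 0.0043). A second, dimmer Cox7b probe set gave 0.23 for the same difference. It was not tested alone, and which genomic copy each set reads was not examined. After PTU in wild type none of the 3 passed, with differences of 0.06 for Cox6b1, 0.27 for Cox7b and 0.20 for Cox8a.

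Between unexposed homozygous and wild-type testis on day 15, 15 of 76 members were lower and 3 higher, where 14.2% and 14.6% of the 16710 genes tested were lower and higher. As shares of the members these are 19.7% and 3.95%. Besides the germ cell isoforms and Ndufaf3, the lower members were the assembly factors Ndufaf2 (-0.75 ± 0.22, adjusted p = 0.016) and Ndufaf7 (-0.63 ± 0.15, adjusted p = 0.0050), 7 complex I subunits, Uqcrc2 of complex III and Sdhd, a membrane anchor of complex II. Uqcrc2, a core subunit of complex III, read 11.97, 11.95 and 11.98 in wild type and 11.51, 11.59 and 11.45 in homozygous arrays (-0.45 ± 0.09, adjusted p = 0.0012). Its groups do not overlap, but the difference is small. The 9 common subunits called lower ranged from -0.45 for Uqcrc2 to -0.25 for Sdhd. Ndufs1, the largest complex I subunit and its iron-sulfur entry domain, differed by -0.33 ± 0.11 (adjusted p = 0.035). Ndufa12, an accessory subunit, differed by -0.40 ± 0.11 (adjusted p = 0.013).

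The 3 higher members were Cox7b, the assembly factor Ndufaf6 (0.31, adjusted p = 0.048) and Ndufa4 (0.28, adjusted p = 0.022). Of the 6 anchor subunits Ndufs1 passed and the other 5 did not: Ndufv1 differed by -0.15, Sdha by -0.12, the Rieske protein Uqcrfs1 by -0.11, Cox4i1 by -0.05 and Cox5a by -0.15. The median difference was -0.11 over the 56 common subunits, -0.10 over all members and 0.08 over all genes tested. Without unexposed wild type 1 or 3 the count of 18 fell to 9 and 11, and without the Spink8-bearing arrays to 6, namely Cox8c, Cox6b2, Cox7b2, Ndufaf3, Uqcrc2 and Cox7b, all in the same direction. Without those arrays Ndufaf2, Ndufaf7, Ndufs1, Ndufa4 and Ndufaf6 did not pass (adjusted p = 0.16, 0.052, 0.17, 0.053 and 0.21), and leaving out single arrays also ended the calls of Ndufaf2 (unexposed homozygous 3, adjusted p = 0.077) and of Ndufs1 (every wild-type array and homozygous 1 and 3, adjusted p = 0.064 to 0.11). Ndufa4 and Ndufaf6 did not pass without wild type 1 or 3 or homozygous 1 or 3, with adjusted p up to 0.10 for Ndufa4 and 0.18 for Ndufaf6.

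After PTU in wild type on day 15, 7 of 76 members were lower and 1 higher, against 8.75% and 6.53% of all genes tested. The lower members beyond the 2 germ cell isoforms and Ndufaf3 were Ndufa6 (-0.58 ± 0.13, adjusted p = 0.0069), Cox6a1 (-0.44 ± 0.11, adjusted p = 0.014), Ndufa8 (-0.32 ± 0.10, adjusted p = 0.044) and Sdhd (-0.28 ± 0.08, adjusted p = 0.022). Ndufa6, an accessory complex I subunit, read 9.45, 9.48 and 9.55 unexposed and 8.85, 8.83 and 9.05 exposed. Cox6a1, the widely expressed subunit VIa, read 10.16, 10.21 and 10.11 unexposed and 9.73, 9.76 and 9.67 exposed. In both genes every exposed array was below every unexposed one. The higher member was the assembly factor Ndufaf5 (0.45 ± 0.09, adjusted p = 0.0020). Ndufa8 did not pass when any 1 of the 6 arrays was left out (adjusted p = 0.068 to 0.15), nor Cox6a1 without exposed array 3 or unexposed array 1 (adjusted p = 0.065 and 0.054). The count was 3 without exposed array 3, 4 without unexposed array 1, 5 without unexposed array 3, and 1, Ndufaf3, without the Spink8-bearing arrays. The array sets as blocks gave 17 calls, and a fit to the first set, which holds all 6 arrays of this comparison, gave 20, with Cox7b2 among them (-0.79, adjusted p = 0.023). Counts under other settings, here and throughout, are given without the share of all genes called under the same setting. Changes in them are therefore not read as particular to the members.

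PTU called no member in heterozygous or homozygous testis on day 15 by limma, where 0.192% of genes were higher and 0.377% lower in heterozygous and 0.586% higher and 4.37% lower in homozygous testis. At unadjusted p under 0.05 there were 10 members in each. The count was 2 in heterozygous testis without exposed array 3, and in homozygous testis 3 without exposed array 1 and 4 without exposed array 3 or unexposed array 3. In homozygous testis the germ cell isoforms differed by 0.95 ± 0.30 for Cox6b2, 1.12 ± 0.33 for Cox7b2 and 1.12 ± 0.42 for Cox8c, with adjusted p of 0.077, 0.058 and 0.13. These did not pass, and single arrays decide them: Cox6b2 passed without exposed array 3 or unexposed array 3 (adjusted p = 0.030 and 0.027), Cox7b2 without unexposed array 3 (adjusted p = 0.0088) and Cox8c without exposed array 3 (adjusted p = 0.041). Cox7a1, the heart and muscle type of subunit VIIa, passed in heterozygous testis without that array of its group (-0.76, adjusted p = 0.044).

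Between unexposed heterozygous and wild type no member was called by limma (18 at unadjusted p under 0.05), where 0.718% of genes were higher and 3.23% lower. The differences of the germ cell isoforms were -0.96 ± 0.42 for Cox8c, -0.47 ± 0.30 for Cox6b2 and -0.26 ± 0.33 for Cox7b2. Between exposed homozygous and wild type no gene at all was called by limma (0%), with 18 members at unadjusted p under 0.05, and the germ cell isoforms differed by -0.03 to 0.27. In these last comparisons arrays of the same sample number deviated together, and with that number as a replicate block 2 members were lower in heterozygous testis, Ndufaf2 (-0.58, adjusted p = 0.048) and Ndufaf7 (-0.49, adjusted p = 0.022). In exposed homozygous testis the replicate block called 3, Cox6b1 (0.70, adjusted p = 0.048) and Ndufa11 (0.58, adjusted p = 0.036) higher and Cox7a2 (-0.79, adjusted p = 0.036) lower. Leaving out unexposed heterozygous 1 gave 6 calls in the former comparison, and leaving out exposed homozygous 1 gave 14 in the latter.

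The PTU effect itself differed between homozygous and wild type for 8 of 76 members on day 15, 6 more positive in homozygous testis and 2 more negative, against 8.23% and 8.13% of all genes. The 3 germ cell isoforms and Ndufaf3 differed most: Cox8c by 2.91 ± 0.60 (adjusted p = 0.0040), Ndufaf3 by 2.39 ± 0.42 (adjusted p = 0.0014), Cox6b2 by 1.97 ± 0.42 (adjusted p = 0.0053) and Cox7b2 by 1.91 ± 0.46 (adjusted p = 0.011). Ndufa6 (0.63) and Sdhd (0.43) were also more positive, Ndufaf6 (-0.51) and Ndufaf5 (-0.43) more negative. The call of Ndufaf6 was lost in 12 of 21 alternatives, that of Ndufa6 in 8 of 21 and that of Ndufaf5 in 5 of 20, mostly on leaving out single arrays, with unexposed wild type 1 and 3 and unexposed homozygous 1 among them for each (adjusted p = 0.057 to 0.11). Without the Spink8-bearing arrays Cox8c and Ndufaf3 still passed (adjusted p = 0.0495 and 0.021) and Cox6b2 and Cox7b2 did not (0.054 and 0.094). Without unexposed wild type 1 or 3 the count was 5 in either case. The interaction uses the same unexposed wild-type and homozygous arrays as the comparisons above, so it is not separate evidence of them.

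**Figure D2:**
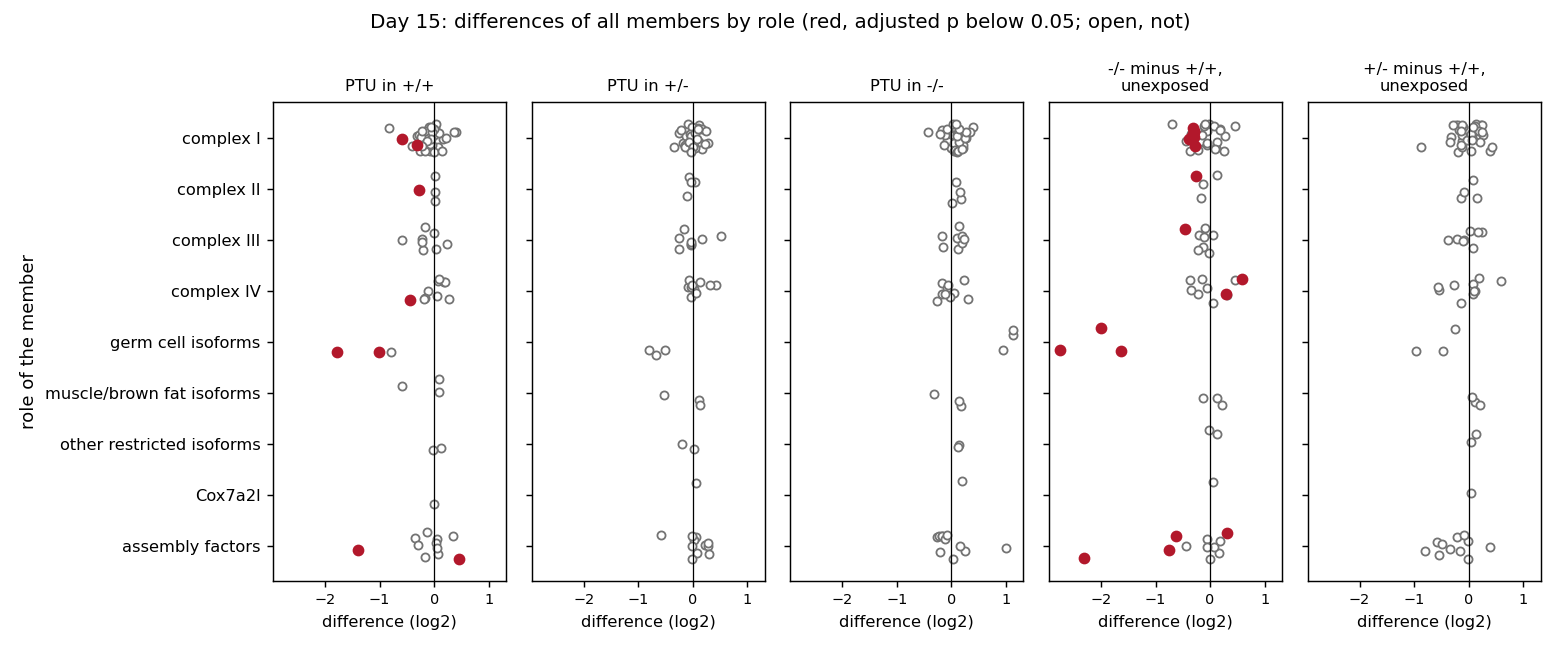
Log2 differences of all 76 members on day 15, by role, in 5 comparisons; each point is a member, red where its adjusted p was below 0.05 and open where not, and vertical scatter has no meaning. The germ cell isoforms and 1 assembly factor, Ndufaf3, lie furthest left between unexposed genotypes, and Cox8c, Ndufaf3 and Cox6b2 do so after PTU in wild type. Common subunits of complexes I to IV lie between -0.84 and 0.58 in these 2 comparisons, and Ndufs6, furthest left of them after PTU in wild type at -0.84, did not pass.

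Markers of pachytene spermatocytes moved in the same direction as the germ cell isoforms on day 15. All 12 listed markers, among them Adam3 and Hspa2, were lower in unexposed homozygous than in wild-type testis and 9 of 12 after PTU in wild type. Their mean ran from 10.11 to 10.57 in unexposed wild type, 7.99 to 9.10 in exposed wild type, 6.82 to 7.83 in unexposed homozygous and 7.54 to 8.83 in exposed homozygous arrays. Early meiotic markers (9 of 10 lower) moved likewise in unexposed homozygous testis, while 8 of 11 spermatogonial and 5 of 10 Sertoli cell markers were higher. Their part in the differences of the isoforms was not tested. Spermatid markers were at 5.82 to 6.05 in every group's arrays, with Prm1 at 5.28 to 5.80.

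Other germ cell isoforms of energy metabolism, which are no members, moved in the same direction. Between unexposed homozygous and wild type, 6 of 9 measured were lower and 1 higher, with a median of -1.81. Cyct, the testis cytochrome c that hands electrons to complex IV, differed by -1.81 ± 0.32 (adjusted p = 0.00045), and Pdha2, the testis pyruvate dehydrogenase subunit, by -2.03 ± 0.36 (adjusted p = 0.00048). Their widely expressed counterparts Cycs (0.46, adjusted p = 0.016) and Pdha1 (0.48, adjusted p = 0.018) were higher. The ADP/ATP carrier of germ cells, Slc25a31, was lower by a difference of -0.41 (adjusted p = 0.028), and its somatic relative Slc25a4 differed by -0.02. Of the rest of the chain's machinery, 2 of 17 ATP synthase genes and 1 of 22 further assembly factors were higher, and 0 and 1 lower. Over all genes tested in this comparison, 14.6% were higher and 14.2% lower.

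On day 25 the pattern was another. After PTU in homozygous testis Ndufa4, Ndufb11, Cox6b1 and Cox8a were higher by about 1 to 1.5 log2 units, and Ndufa4l2, Cox6b2 and Cox8c were lower. Of the 56 common subunits 23 were higher (41.1%), near the 38.4% of all genes, and 7 lower (12.5%), where 32.8% of all genes were. Without PTU 16 of 56 common subunits were lower in heterozygous than in wild-type testis (28.6%, against 14.3% of all genes) and 9 of 56 in homozygous testis (16.1%, against 7.32%), the latter calls being lost with the beta-actin covariate or without wild-type array 3. PTU in wild type called no member.

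After PTU in homozygous testis 28 of 77 members were higher and 14 lower. Since 38.4% and 32.8% of the 16305 genes tested were higher and lower, the members' shares of 36.4% and 18.2% are near the background on the higher side and below it on the lower. All results with this group rest on 2 exposed arrays, which hold Spink8 at 12.75 or more and sit apart in cell type markers: spermatid markers averaged 5.42 to 6.45 against 11.45 to 11.97 in unexposed homozygous arrays (11 of 11 lower), pachytene markers 10.41 to 11.67 against 12.39 to 12.59 (11 of 12 lower), and spermatogonial markers 9.21 to 9.72 against 8.22 to 8.33 (10 of 10 higher). Epididymal markers averaged 7.59 to 7.71 against 5.07 to 5.32 (3 of 5 higher, 1 lower), peritubular markers 10.29 to 10.37 against 8.99 to 9.25 (4 of 5 higher) and fat markers 7.48 to 8.49 against 5.92 to 6.13 (2 of 4 higher). Lower were Leydig cell markers at 7.66 to 8.06 against 8.71 to 9.38 (2 of 6 lower, 1 higher), macrophage markers at 7.41 to 7.51 against 7.64 to 8.09 (3 of 8 lower) and blood markers at 5.20 to 5.47 against 6.29 to 6.39 (2 of 2 lower). Their part in the members' differences was not tested.

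Of the complex IV subunits 4 of 10 were higher and 1 lower, where 38.4% of all genes were higher and 32.8% lower. Ndufa4, which sits on complex IV, rose most of all members. It read 11.01 and 11.47 in the exposed and 10.06, 9.61 and 9.59 in the unexposed homozygous arrays (1.48 ± 0.16, adjusted p = 1.55e-06). Cox6b1 read 12.41 and 12.81 against 11.51, 11.34 and 11.31 (1.22 ± 0.13, adjusted p = 1.37e-06). Cox8a read 10.80 and 11.11 against 9.96, 9.79 and 9.88 (1.07 ± 0.13, adjusted p = 3.31e-06). In these genes both exposed homozygous arrays were above all 15 other arrays of that day. Further probe sets of Cox6b1 (0.82) and Cox8a (1.03 and 0.45) moved in the same direction.

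Within complex I, 14 of 34 common subunits were higher and 3 lower, against 38.4% and 32.8% of all genes. Ndufb11, an accessory subunit of the membrane arm, read 11.72 and 11.97 against 10.78, 10.59 and 10.49 (1.23 ± 0.11, adjusted p = 3.57e-07), and Ndufa1 differed by 0.98 ± 0.08 (adjusted p = 2.46e-07). The flavoprotein subunit Ndufv1 differed by 0.48 ± 0.12 (adjusted p = 0.0018), and Ndufs1 by 0.10 with no call. Ndufb1 was lowest in the complex (-0.57 ± 0.11, adjusted p = 0.00031). Assembly factors split likewise, Ndufaf4 (1.14 ± 0.14, adjusted p = 5.56e-06) and Sdhaf3 (0.98 ± 0.12, adjusted p = 6.78e-06) higher, Ndufaf2 (-0.49, adjusted p = 0.0013) and Ndufaf3 (-0.46, adjusted p = 0.0019) lower. Complexes II and III gave 2 of 4 and 3 of 8 higher and 0 and 3 lower, beside the same shares of all genes. The Rieske protein Uqcrfs1 was lower (-0.32, adjusted p = 0.013) but not without exposed array 2 (-0.15, adjusted p = 0.25). Ndufaf3 likewise did not pass without it (-0.25, adjusted p = 0.060). Cox5a was lower (-0.29, adjusted p = 0.0035) in its brightest probe set, but its other sets gave -0.14 and -0.0076, and the mean of all its sets did not pass (-0.15, adjusted p = 0.078). Cox4i1 differed by 0.08 and Sdha by 0.18 with no call. The median over the 56 common subunits was 0.18, against 0.02 over all genes tested.

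Among the germ cell isoforms Cox6b2 read 12.94 and 12.50 in exposed and 13.45, 13.58 and 13.55 in unexposed homozygous arrays (-0.80 ± 0.11, adjusted p = 9.66e-06). Cox8c read 13.25 and 12.83 against 13.42, 13.57 and 13.52 (-0.47 ± 0.10, adjusted p = 0.00090). Cox7b2 read 13.18 and 12.65 against 13.13, 12.99 and 12.92, so its groups overlap, and it did not pass (-0.10 ± 0.14). Both exposed arrays were the lowest of that day's 17 for Cox6b2 and Cox8c. Without exposed array 1 Cox7b2 passed (-0.37, adjusted p = 0.031). All 3 read 12.50 to 13.77 on an array whose highest value was 15.14, and whether bright probe sets compress a change was not tested.

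Ndufa4l2, a relative of Ndufa4 that hypoxia induces in other cells, fell furthest of all members. It read 8.47 and 7.01 in exposed homozygous arrays and 10.40, 10.04 and 10.24 in unexposed ones (-2.49 ± 0.29, adjusted p = 2.61e-06). All other arrays of that day lay between 9.60 and 10.70, so its low values were seen in that group alone. Cox4i2, the hypoxia-responsive copy of subunit IV, was lower by a difference of -0.34 (adjusted p = 0.0069) but not after quantile normalization (-0.13, adjusted p = 0.26). Cox6a2 was lower (-0.36, adjusted p = 0.019), not without exposed array 2 or unexposed array 1 (adjusted p = 0.11 and 0.082), while Cox7a1 and Cox8b differed by 0.05 and -0.24 with no call. Markers of striated muscle and brown fat were low in all arrays (means of at most 6.39 and 6.41).

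**Figure D3:**
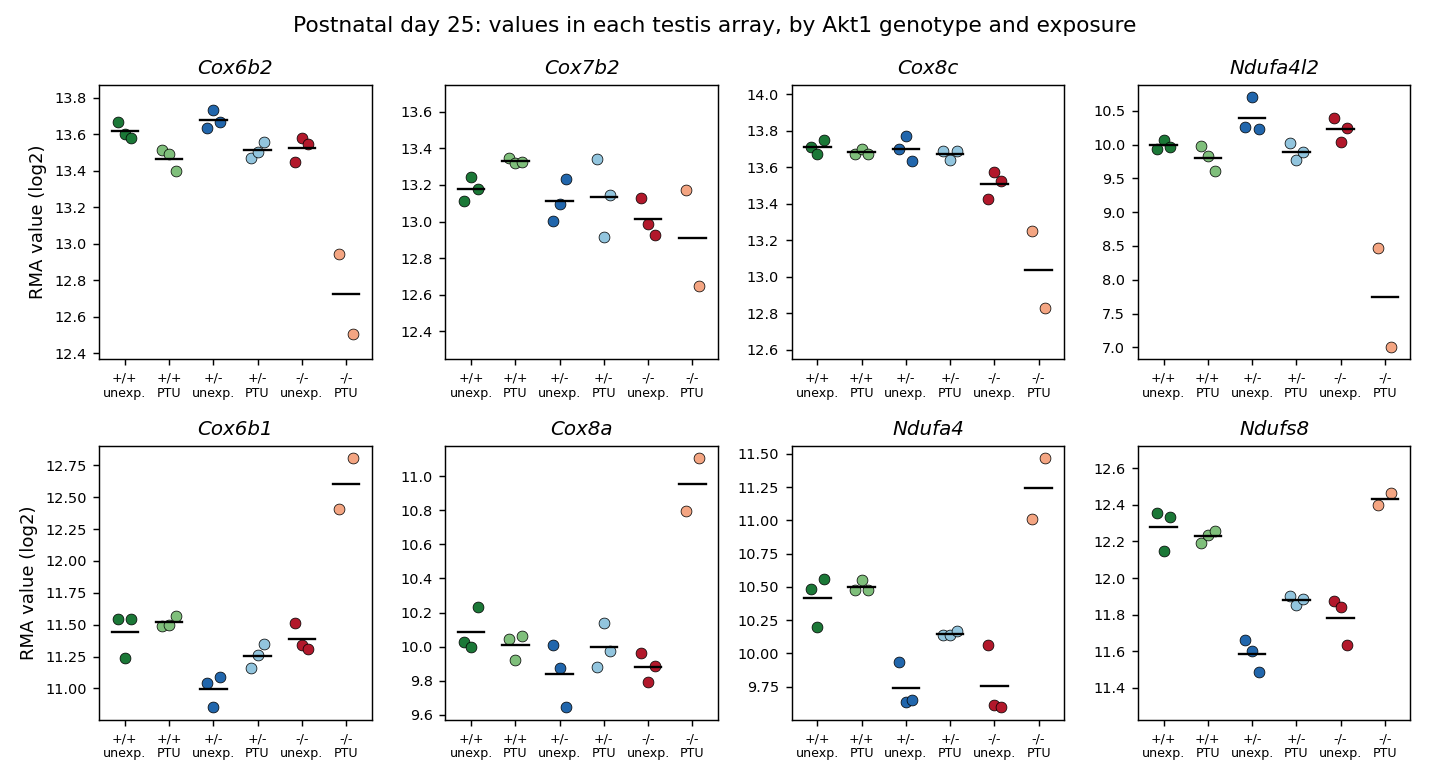
Log2 RMA values of 8 members in each day 25 array, by Akt1 genotype and exposure (unexp., unexposed); points are arrays, bars are group means, and each panel has its own axis. In Cox6b1, Cox8a and Ndufa4 the 2 exposed homozygous arrays lie above all others, in Cox6b2, Cox8c and Ndufa4l2 below all others, and Ndufs8 is lower in unexposed heterozygous and homozygous than in wild-type arrays.

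Probe sets of a member did not always move together in this comparison. Uqcr10, a small complex III subunit, differed by -0.20 in its brightest set and by -1.62 and -1.23 in its dimmer sets. Ndufa10 differed by 0.72 and -0.24, Ndufa12 by -0.28 and, in its dimmest set, 1.29, and Ndufc2 by 0.70 and, in its dimmest set, -0.50. Only 27 of 77 members were called when the fit held only the 2 groups compared.

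The difference in PTU effect between homozygous and wild type on day 25 was called for 24 members more positive and 9 more negative, against 33.1% and 26.3% of genes. Ndufa4 led the former (1.40), with Ndufb11 (1.17), Cox8a (1.15), Cox6b1 (1.14), Ndufaf4 (1.04) and Ndufa1 (0.87). Ndufa4l2 led the latter (-2.30), with Ndufb1 (-0.67), Cox6b2 (-0.65) and Ndufaf2 (-0.62). Between exposed homozygous and exposed wild type 19 members were higher and 20 lower, against 32.7% and 28.4% of genes. With quantile normalization the split was 28 and 14, and with the beta-actin difference as a covariate it was 1 and 0, the call being Ndufb11. Without exposed homozygous 2 there were 22 calls. All 3 germ cell isoforms were lower there, Cox6b2 by a difference of -0.74, Cox8c -0.64 and Cox7b2 -0.42. None of these passed with the beta-actin covariate (adjusted p = 0.17, 0.22 and 0.86), and Cox7b2 did not without exposed homozygous 2 (-0.16, adjusted p = 0.39). Since that covariate does not overlap between homozygous and wild-type arrays, calls lost with it do not separate RNA quality from genotype.

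On day 25 PTU in wild type called none of the 77 members and no other gene (0%) by limma, with 1 member at unadjusted p under 0.05. Differences ran from -0.23 to 0.21. PTU in heterozygous testis gave 7 higher and 0 lower members, against 11.5% and 7.2% of genes: the assembly factor Ndufaf6 (0.42), Ndufa1 (0.40), Uqcrc2 (0.39), Cox7c (0.38), Sdhc (0.31), Ndufs8 (0.30) and Uqcrh (0.29). Uqcrc2 read 12.24, 12.17 and 12.25 exposed and 12.03, 11.78 and 11.68 unexposed, with no overlap (adjusted p = 0.028). The count was 3 without exposed array 2, 3 without unexposed array 2, 4 without unexposed array 3 and 11 without unexposed array 1. Uqcrc2 and Ndufs8 did not pass without any 1 of the exposed arrays or unexposed array 2 or 3 (adjusted p = 0.072 to 0.11 and 0.062 to 0.094), nor Cox7c without unexposed array 2 (adjusted p = 0.077). Sdhc did not pass without exposed array 2 or unexposed array 3 (adjusted p = 0.074 and 0.069) or with the mean of its probe sets (adjusted p = 0.064). No germ cell isoform passed in either comparison. Spermatid markers were lower after PTU in heterozygous testis (11 of 11, means of 8.70 to 10.32 against 11.39 to 12.57). Sertoli cell markers averaged 10.19 to 10.41 against 9.92 to 10.13 (3 of 10 higher), spermatogonial markers 8.45 to 8.62 against 8.01 to 8.24 (4 of 10 higher) and peritubular markers 9.21 to 9.65, above all unexposed heterozygous arrays (2 of 5 higher). The part of these markers was not tested.

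Without PTU, heterozygous testis had 21 lower and 0 higher members than wild type on day 25, against 14.3% and 8.32% of genes. The shares of members are 27.3% and 0%. Ndufs8, an iron-sulfur subunit of complex I, read 11.66, 11.60 and 11.49 in heterozygous and 12.36, 12.15 and 12.33 in wild-type arrays (-0.70 ± 0.08, adjusted p = 0.0011). Ndufa4 read 9.94, 9.64 and 9.65 against 10.49, 10.20 and 10.56 (-0.67 ± 0.14, adjusted p = 0.0058). Neither gene's groups overlap. Sdhaf3 (-0.63), Ndufaf6 (-0.61), Ndufa1 (-0.58) and Cox6b1 (-0.45) followed, and the median over common subunits was -0.15 against -0.03 over all genes. All 6 probe sets of Ndufs8 differed in the same direction, by -0.70 to -0.15. The count was 13 without heterozygous array 2 and 12 without wild-type array 3, and Cox6b1 did not pass without either of these or wild-type array 1 (adjusted p = 0.075, 0.074 and 0.056). The germ cell isoforms differed by -0.07 to 0.06.

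Unexposed homozygous testis had 12 lower and 1 higher member than wild type on day 25, against 7.32% and 5.35% of genes. Ndufa4 (-0.66 ± 0.14, adjusted p = 0.016) and Ndufs8 (-0.50 ± 0.08, adjusted p = 0.0083) were again lowest, with 7 common complex I subunits, Sdhc of complex II and 3 assembly factors among the lower members. Ndufs8 read 11.88, 11.84 and 11.63 in homozygous arrays, all below the wild-type ones. The assembly factor Ndufaf8 was higher (0.34, adjusted p = 0.023). Without wild-type array 3 none of these 3 passed (adjusted p = 0.084 for Ndufa4, 0.051 for Ndufs8 and 0.099 for Ndufaf8), nor Ndufa4 and Ndufaf8 without homozygous array 3 (0.064 in each), nor Ndufaf8 without homozygous array 1 or wild-type array 2 (0.066 and 0.053). The germ cell isoforms differed by -0.20 to -0.09 with no call. The count was 0 without wild-type array 3, 1 without homozygous array 3, 5 without wild-type array 1 and 7 without homozygous array 1, and it was 0 with the beta-actin covariate. Both unexposed mutant groups had higher spermatid markers than wild type (8 of 11 in heterozygous and 5 of 11 in homozygous testis), with means of 11.39 to 12.57 and 11.45 to 11.97 against 9.37 to 10.98. Sertoli cell markers averaged 9.92 to 10.13 and 10.07 to 10.19 against 10.30 to 10.44 (5 and 1 of 10 lower), and spermatogonial markers 8.01 to 8.24 and 8.22 to 8.33 against 8.41 to 8.51 (3 and 2 of 10 lower). Whether these bear on the members was not tested. The 2 comparisons share the wild-type arrays.

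**Figure D4:**
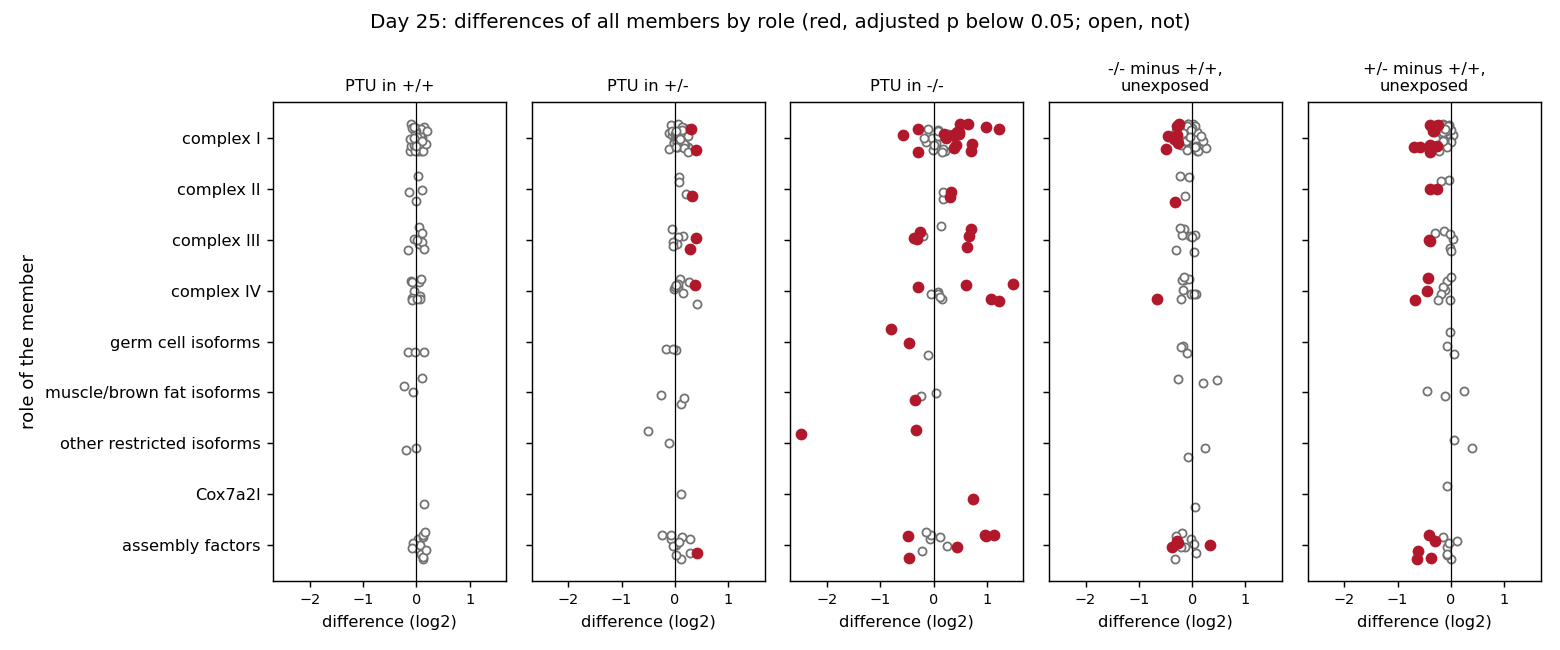
Log2 differences of all 77 members on day 25, by role, in 5 comparisons; each point is a member, red where its adjusted p was below 0.05 and open where not, and vertical scatter has no meaning. Calls are in both directions after PTU in homozygous testis and, but for Ndufaf8, on the lower side only between unexposed genotypes.

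Genes outside the complexes are set beside the 38.4% of all genes that were higher and 32.8% that were lower after PTU in homozygous testis on day 25. Of 17 ATP synthase genes 12 were higher and 0 lower, among them Atp5g2 (1.26), a copy of the membrane ring subunit. Of 15 genes of mitochondrial DNA upkeep and biogenesis 9 were higher and 4 lower, and Tfam, which packages mitochondrial DNA, differed by 1.23 and Ssbp1 by 1.70. Of 11 citric acid cycle genes 6 were higher and 4 lower. The widely expressed energy genes were higher in 8 of 9 cases, Pdha1 by 1.41, Cycs by 1.10 and Slc25a4 by 0.84. Their germ cell counterparts were lower in 7 of 9 cases, Pdha2 by a difference of -0.58 and Gapdhs, a spermatid glycolytic enzyme, by -5.33. Cyct differed by 0.02 with no call, and Slc25a31 was higher (0.77).

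To set each germ cell isoform beside its partner, their difference was taken within each array and its shift tested by an exact two-sided permutation of the arrays, with 10 such tests adjusted together. On day 15 Cox6b2 minus Cox6b1 stood at -2.46 in unexposed homozygous and -1.08 in exposed wild-type testis, measured from unexposed wild type. Over both exposures the homozygous minus wild-type shift was -1.59 (p = 0.02, adjusted 0.075), with -1.45 for Cox8c minus Cox8a (p = 0.06, adjusted 0.086) and -1.12 for Cox7b2 minus Cox7b (p = 0.055, adjusted 0.086) by the same exact test. None passed, although Cox6b2 minus Cox6b1 did without exposed homozygous 1 (-1.85, adjusted p = 0.025). These genotype shifts pool exposures with unlike differences. Measured from unexposed wild type, Cox7b2 minus Cox7b stood at -2.22 in unexposed homozygous, -1.07 in exposed homozygous and -1.05 in exposed wild-type testis. Cox6b2 minus Cox6b1 stood at -1.80 in exposed homozygous testis. The test therefore does not address the unexposed difference alone. The shifts with exposure on day 15, averaged over the genotypes, were -0.51 to -0.24 and did not pass. These averages pool group means that moved in opposite directions. Measured from unexposed wild type, Cox8c minus Cox8a stood at -1.99 in exposed wild type. It stood at -1.05 unexposed and -1.84 exposed in heterozygous testis, and at -3.06 unexposed and -1.82 exposed in homozygous testis. The other pairs likewise fell in wild type and rose in homozygous testis.

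On day 25 Cox6b2 minus Cox6b1 shifted by -0.89 with exposure (exact permutation p = 0.00025, the smallest that 4000 arrangements can give, adjusted 0.0025). Measured from unexposed wild type, the difference stood at -2.06 in exposed homozygous, -0.03 in unexposed homozygous, -0.23 in exposed wild type and, in heterozygous testis, 0.51 unexposed and 0.08 exposed. Without the 4 Spink8-bearing arrays of that day the shift was -0.29 and did not pass (adjusted p = 0.1). Cox8c minus Cox8a stood at -1.54 in exposed homozygous testis and shifted by -0.56 with exposure (exact p = 0.0225, adjusted 0.075), which did not pass.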

How the data were processed

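Total RNA of whole testis was hybridised to 1 array per mouse, 18 arrays on day 15 and 17 on day 25. The authors deposited log2 values per probe set after RMA (background correction, quantile normalization, summary), per the labels, with the version and any further filter not given in the sources used here. Precision is set by the 2 or 3 arrays in a group.

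Probe sets annotated to a single symbol were kept (21789 of 35556 on day 15, 34958 of 45101 on day 25), and each gene was read by its brightest one. A gene was tested if at least 2 arrays read it above the 25th percentile of the whole table. limma 3.58.1 (R 4.3.3) was fitted to the 6 group means of each day with empirical Bayes moderation, 7 comparisons a day, and p-values were adjusted by Benjamini-Hochberg over all genes tested with a threshold of 0.05. Nothing in the labels says whether animals of a group were litter mates, so p-values measure the spread between these samples. The method was tested on simulated data with log2 changes added. For PTU in wild type on day 15 it recovered 6% of changes of 0.3, 50% of 0.5 and 96% of 1. For PTU in homozygous testis on day 25 these shares were 0%, 30% and 88%. A small difference without a call is therefore not shown to be absent.

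Genes named are the germ cell isoforms with their partners, the restricted isoforms, 6 anchor subunits, up to 6 largest passing rises and falls per comparison, and for other lists up to 4 smallest p plus Cycs, Cyct, Pdha1, Pdha2, Slc25a4 and Slc25a31. Ndufs6 and the members whose probe sets disagreed, Uqcr10, Ndufa10, Ndufa12 and Ndufc2, and the members gained under other settings, were named after their values were seen. The members and lists were chosen with earlier results of these data known. Cox7b had no usable probe set on day 25, so the paired isoform test has 10 results.

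Sample numbers shared by groups were checked by the correlation of same-numbered arrays' deviations from their group means. All 3 pairs exceeded 0.1 for PTU in heterozygous testis (0.44, 0.44 and 0.39), unexposed heterozygous against wild type (0.18, 0.37 and 0.19) and exposed homozygous against wild type (0.56, 0.14 and 0.42) on day 15, and for PTU in wild type on day 25 (0.33, 0.23 and 0.40), so the numbers were taken to pair the arrays there and as mere numbers elsewhere.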

Additional observations from a re-analysis of the deposited data

Results flagged for a closer look

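The PTU effect differed between homozygous and wild-type testis, by the interaction term of the limma fit at an adjusted p below 0.05, in 24 cases covering 21 named members, 3 of them on both days. The values that follow are the effect in homozygous minus that in wild type on the log2 scale. On day 15 it was 1.97 for Cox6b2, 1.91 for Cox7b2 and 2.91 for Cox8c, the germ cell isoforms. It was 2.39 for Ndufaf3, -0.43 for Ndufaf5 and -0.51 for Ndufaf6 among the assembly factors, and 0.63 for Ndufa6 and 0.43 for Sdhd among the common subunits.

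On day 25, with 2 exposed homozygous arrays, it was 1.40 for Ndufa4, 1.17 for Ndufb11, 1.15 for Cox8a, 1.14 for Cox6b1, 0.87 for Ndufa1, 0.53 for Ndufv1, 0.31 for Sdha, -0.42 for Uqcrfs1 and -0.67 for Ndufb1. The germ cell isoforms Cox6b2 and Cox8c had -0.65 and -0.44, opposite in sign to day 15, on another array type. The assembly factors Ndufaf4, Ndufaf2 and Ndufaf3 had 1.04, -0.62 and -0.48, and the restricted isoforms Ndufa4l2 and Cox4i2 had -2.30 and -0.33. Several of these calls were lost under other settings: Sdha in 11 of 18 alternatives, the replicate block among them (adjusted p = 0.067), and Cox4i2 in 11 of 17, with -0.11 after quantile normalization. Without exposed homozygous 2 Uqcrfs1, Ndufv1, Cox8c and Ndufaf3 did not pass (adjusted p = 0.14, 0.052, 0.12 and 0.098).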

How the results depend on the processing

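Of 4212 alternative values of named members, 3986 kept their side of the threshold (169 of these, not called, changed sign), 184 lost and 41 gained a call, and 1 called value reversed: Ndufv1 between exposed homozygous and wild type on day 25 turned to -0.037 with the beta-actin covariate (adjusted p = 0.93). The cause was not tested here or below. The counts that follow are given without the share of all genes called under the same setting, so they are not set against the background. On day 15 the calls of 8 after PTU in wild type became 13 with the replicate block, 17 with array set blocks, 20 in the first set alone (chosen after seeing the data), 23 with only the groups compared and 1 without Spink8-bearing arrays, and leaving out 1 array gave 3 to 9. PTU in homozygous testis gave 2 with the filter at the 50th percentile, 1 with the replicate block, 1 with the array set block and 0 to 4 without 1 array, and in heterozygous testis 0 to 2. Unexposed homozygous against wild type gave 6 without Spink8-bearing arrays and 9 to 15 without 1 array. Unexposed heterozygous against wild type gave 2 with the replicate block, 4 with only the groups compared and 0 to 6 without 1 array. Exposed homozygous against wild type gave 3 with the replicate block and 0 to 14 without 1 array. The interaction gave 13 with the replicate block, 16 with the array set block, 17 within the first set, 2 without Spink8-bearing arrays and 5 to 11 without 1 array. On day 25 leaving out 1 array gave 3 to 11 calls for PTU in heterozygous, 35 to 46 in homozygous and 0 in wild-type testis, 0 to 9 and 12 to 23 for unexposed homozygous and heterozygous against wild type, 22 to 39 for exposed homozygous against wild type and 27 to 36 for the interaction. Only the groups compared gave 27 for PTU in homozygous testis and 8 for unexposed homozygous against wild type, where the beta-actin covariate gave 0, and that covariate gave 1 between exposed homozygous and wild type. Of the comparisons treated as possibly paired, the replicate block changed no member call after PTU in heterozygous testis on day 15 or in wild type on day 25. Without 1 array the day 15 shift of Cox6b2 minus Cox6b1 between genotypes ran from -1.85 to -1.32. Without the 4 Spink8-bearing arrays of day 25, chosen after seeing the data, its shift with exposure was -0.29, and that of Cox8c minus Cox8a between genotypes was 0.0037 against -0.79. Small numbers of arrays and, for dim isoforms such as Cox4i2, values near the background limit what could be detected.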
